A study of Mus musculus with 7 samples.

Results

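The BAF complex (also called mammalian SWI/SNF) is a large machine that uses ATP to slide or evict nucleosomes and so opens chromatin at enhancers and promoters. Many of its positions can be filled by either of several closely related subunits, called paralogs, and cells are known to exchange paralogs when they change state. Embryonic stem cells are known for a form of the complex, esBAF, that is built on the ATPase Smarca4 (BRG1) with Smarcc1 (BAF155) and without Smarca2 (BRM) or Smarcc2 (BAF170).

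Here 10 genes of the paralog positions were followed, which are Smarca4, Smarca2, Smarcc1, Smarcc2, Smarcd1, Smarcd2, Smarcd3, Actl6a, Arid1a and Arid1b. They were taken by gene symbol, all 10 were found among the 55484 genes of the count table, and all 10 had enough counts to be tested. The rule itself uses no measured value, but the genes were picked with earlier results of these data known. The study recorded RNA-seq libraries of 4 MEF samples, which are mouse embryonic fibroblasts, and 3 mESC samples, which are mouse embryonic stem cells. Its methods give a C57/Bl6 background for MEFs and mESCs, in the section on its libraries of open chromatin and not in that on RNA. No treatment, passage number or culture condition is given in the labels, and they do not say whether the samples of a cell type came from separate cultures. The study calls its transcriptional data biological replicates, in a number that fits the mESC but not the MEF libraries, and does not say what was separate. The p-values thus measure only the spread between these samples. Libraries are named by the ends of their column names, O1 to O4 for MEFs and Y1 to Y3 for mESCs. These numbers may not be the samples' own. Every MEF column name starts with MEF1 and every mESC column name with mESC1. Whether this means a single source for each cell type is not stated, so the libraries may not be independent.

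The libraries held 6528643 to 11441278 counts on genes. Levels are given in CPM (a gene's counts relative to the library's total, with the total scaled by edgeR's TMM method), and 3 counts in a library, taken as its floor, equalled 0.288 to 0.477 CPM, which covers counting error only. The libraries were 3-prime biased with molecular identifiers. Such counts are taken to depend little on a gene's length, and levels of different genes were compared without division by length. Whether this held for the genes here was not tested. The TMM scaling lowered mESCs against MEFs by 0.28 on the log2 scale, and changes are reported relative to it. Ratios of paralogs within a library do not depend on any scaling. All 10 fibroblast markers, Thy1 and Col1a1 among them, were lower in mESCs, and all 10 pluripotency markers, Pou5f1 and Nanog among them, were higher (adjusted p under 0.05, edgeR). The extraction text in the labels speaks instead of young and aged blood stem cells, and what the O and Y of the column names stand for is not stated. The 6 blood markers together held 2.59 to 13.3 CPM in MEFs and 53.8 to 63.2 CPM in mESCs, nearly all of the latter from Laptm5, a lysosomal membrane protein gene, with 485 to 549 counts in each mESC library. Ptprc, the common antigen of blood cells, had 1 to 17 counts in MEFs and at most 1 in mESCs, and Cd53 had 7 to 30 and at most 3. In bulk RNA, fewer cells of a type and less RNA per cell cannot be told apart.

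The starts of the 10 genes are described first. Genes that fell and genes that did not shared CpG-rich sequence at these starts, apart from Smarcd2. RefSeq lists 11 starts for the 10 genes on GRCm38.p6, and the 300 bases from 250 before to 50 after each were examined. Some of these starts lie inside the gene as annotated, such as that of Smarcd3 at 24602002, with the annotated 5′ end at 24624411. Those of Smarcc1 (110132024) and Actl6a (32708546) also lie past the annotated start of the gene. Which starts MEFs and mESCs use was not tested. The ATPase pair and the Smarcd pair that differed most between the cell types are printed 5′ to 3′ on the gene's strand, with every GGGCGG, the GC box that SP and KLF factors bind, or its reverse complement CCGCCC in capitals. These 4 windows are chr9:21615919-21616218 (plus strand) for Smarca4, chr19:26604910-26605209 (plus) for Smarca2, chr15:99702037-99702336 (plus) for Smarcd1 and chr5:24601953-24602252 (minus) for Smarcd3.
Smarca4: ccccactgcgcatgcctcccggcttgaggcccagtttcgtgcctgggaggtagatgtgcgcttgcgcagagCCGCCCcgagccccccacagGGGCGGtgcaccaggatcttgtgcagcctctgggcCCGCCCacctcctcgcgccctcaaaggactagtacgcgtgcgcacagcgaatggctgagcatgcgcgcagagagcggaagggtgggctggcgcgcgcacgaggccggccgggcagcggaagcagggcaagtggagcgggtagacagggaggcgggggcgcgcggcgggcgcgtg
Smarca2: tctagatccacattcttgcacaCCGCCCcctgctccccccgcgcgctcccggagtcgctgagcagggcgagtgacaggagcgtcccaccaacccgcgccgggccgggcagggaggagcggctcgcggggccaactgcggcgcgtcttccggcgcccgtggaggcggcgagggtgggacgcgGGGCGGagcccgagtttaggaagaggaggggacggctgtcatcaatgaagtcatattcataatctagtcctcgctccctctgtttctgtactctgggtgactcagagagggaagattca
Smarcd1: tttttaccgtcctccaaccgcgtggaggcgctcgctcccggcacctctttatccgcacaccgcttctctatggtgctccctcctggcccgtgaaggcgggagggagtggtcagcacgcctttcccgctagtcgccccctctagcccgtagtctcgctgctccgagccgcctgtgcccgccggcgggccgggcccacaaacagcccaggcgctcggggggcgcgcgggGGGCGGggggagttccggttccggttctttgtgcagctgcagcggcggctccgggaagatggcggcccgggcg
Smarcd3: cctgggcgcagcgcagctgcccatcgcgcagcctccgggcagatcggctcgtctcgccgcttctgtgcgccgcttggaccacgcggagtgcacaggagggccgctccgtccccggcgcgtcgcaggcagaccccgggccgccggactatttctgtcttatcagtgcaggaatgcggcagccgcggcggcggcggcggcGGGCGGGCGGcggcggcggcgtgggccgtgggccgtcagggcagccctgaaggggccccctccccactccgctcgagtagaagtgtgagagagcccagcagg
A GGGCGG on either strand was found in all 11 windows, against 35.7% of all 32851 promoter windows of the same length. Of the 11 windows, 10 held at least 20 CpG dinucleotides, which 26.5% of all windows did, and of those CpG-rich windows 80.9% held the GC box. Smarca4 had 33 CpG and 3 GC boxes and Smarca2 29 CpG and 2 GC boxes, while Smarcd1 had 35 and 1 and Smarcd3 40 and 2. The exception was Smarcd2, whose window held 4 CpG, 2 GC boxes and a TATAAA, a motif found in 13.6% of all windows and in no other member window. The TATAAA lay near the 5′ end of the window, far before the start. That window surrounds a start at 106267632, inside the gene, whose annotated 5′ end is at 106272972. The sequence at that end was not examined. CCAAT was in none of the 11 windows and in 37.4% of all. Both strands were searched for each motif, and a CCAAT could share letters with a CCGCCC or with a TATAAA. A match of letters is a description of the window and not a binding site.

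Between mESCs and MEFs, 3 of the 10 genes rose (Smarcd1, Actl6a and Arid1a), 4 fell (Smarca2, Smarcc2, Smarcd3 and Arid1b) and 3 did not pass the test (Smarca4, Smarcc1 and Smarcd2). Each of the 4 paralog families thus held a gene that fell and a gene that did not. The test was edgeR's quasi-likelihood test over all 16580 genes with enough counts, with Benjamini-Hochberg adjustment and a threshold of 0.05. Of all genes tested, 22.8% were higher in mESCs and 25% lower, 47.9% in all. The same 7 genes were those whose MEF and mESC libraries did not overlap, 3 higher and 4 lower in mESCs. That held for 52.1% of all genes tested, 25.9% higher and 26.2% lower. The median log2 fold change of the 10 genes was -0.13, beside 0.04 over all genes tested.

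**Figure D1:**
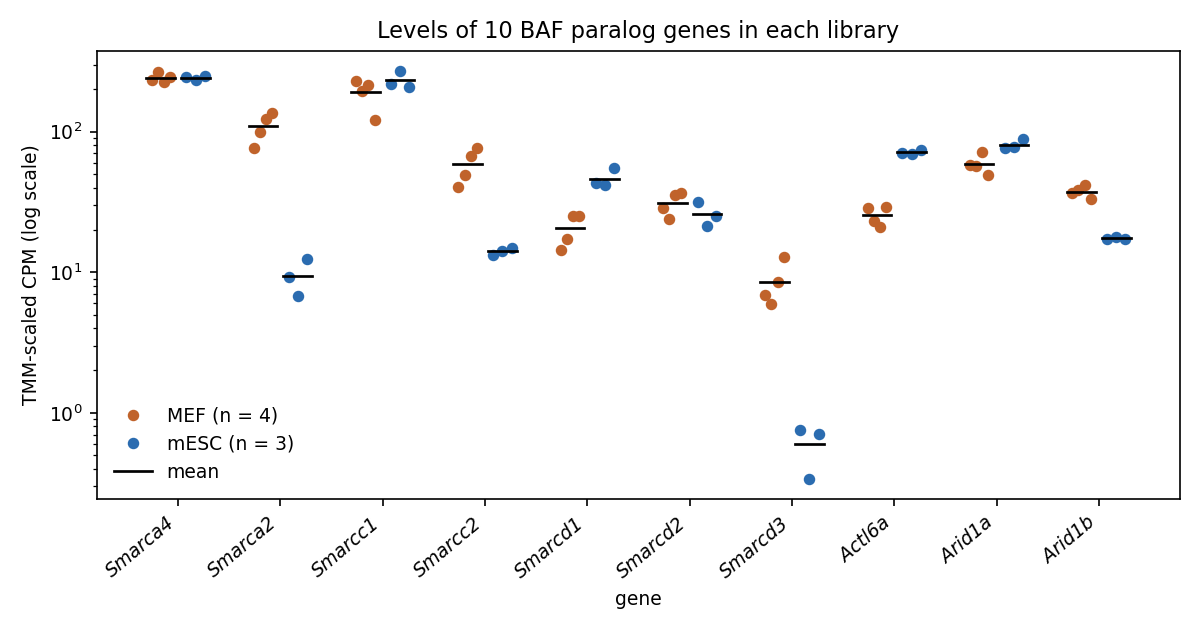
TMM-scaled CPM of each gene on a log axis, with 4 MEF libraries in orange, 3 mESC libraries in blue and a bar at each mean. Smarca2, Smarcc2, Smarcd3 and Arid1b lie below all MEF points in all mESC libraries, Smarcd1, Actl6a and Arid1a lie above them, and Smarca4 has means of 242 and 243 CPM in MEFs and mESCs.

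The ATPase subunits Smarca4 and Smarca2 are the motors of the complex, and a complex carries either of them. Smarca2 (chromosome 19 of GRCm38, 26605050 to 26778322) held 77.0, 99.4, 123 and 136 CPM in MEF libraries O1 to O4 and 9.21, 6.82 and 12.4 CPM in mESC libraries Y1 to Y3. Every mESC library was far below the lowest MEF library. Smarca2 fell by 3.52 on the log2 scale (standard error 0.280, adjusted p = 2.99e-06, edgeR). Its means were 109 ± 26.1 CPM (SD, n = 4) and 9.47 ± 2.79 CPM (SD, n = 3), 11.5-fold apart.

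Smarca4 (chromosome 9, 21616169 to 21704230) held 232, 265, 226 and 245 CPM in MEFs and 246, 234 and 249 CPM in mESCs. The mESC values lay inside the MEF range. The log2 fold change was 0.0058 with a 95% confidence interval of -0.27 to 0.28 (adjusted p = 0.974, edgeR). Without scaling beyond library size it was 0.29 and still missed the threshold (adjusted p = 0.0858, edgeR).

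Within a library, Smarca4 outnumbered Smarca2 by 3.01, 2.67, 1.83 and 1.80 times in MEFs O1 to O4 and by 26.5, 34.1 and 19.99 times in mESCs Y1 to Y3. The ratio was thus lowest in MEFs O3 and O4 and highest in the mESC libraries, with no overlap. On the log2 scale the ratio averaged 1.18 ± 0.38 in MEFs (SD, n = 4) and 4.71 ± 0.39 in mESCs (SD, n = 3), a difference of 3.53 with a standard error of 0.29 (exact permutation test, two-sided, p = 0.0286, unadjusted). That is the smallest p that the 35 splits of 4 and 3 libraries allow, and all 6 ratios computed here reached it. Smarca2 supplied 24.9% to 35.7% of the counts of both ATPases in MEFs and 2.83% to 4.74% in mESCs. The widest 95% interval (Wilson) of any share in any of the families was 11.1 percentage points, for counting error only.

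The sum of both ATPases averaged 351 ± 30.8 CPM over the MEF libraries (SD, n = 4) and 252 ± 10.2 CPM over the mESC libraries (SD, n = 3), without overlap (exact permutation test, two-sided, p = 0.0286). On the log2 scale the sum fell by 0.47 with a standard error of 0.07. Without scaling beyond library size it fell by 0.19 and the call was lost (exact permutation test, two-sided, p = 0.143).

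Smarcc1 and Smarcc2 are scaffold subunits that pair up in the core on which the complex is assembled. Smarcc2 (chromosome 10, 128459248 to 128490482) held 40.7, 49.5, 66.7 and 77.0 CPM in MEFs O1 to O4 and 13.3, 14.1 and 14.9 CPM in mESCs. The MEF libraries spread over a wide range, and the mESC libraries lay close together below it. The gene fell by 2.05 on the log2 scale (standard error 0.245, adjusted p = 5.78e-05, edgeR), which is 4.14-fold lower in mESCs.

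Smarcc1 (chromosome 9, 110117708 to 110240178) held 231, 195, 215 and 121 CPM in MEFs and 218, 270 and 208 CPM in mESCs. The groups overlapped, and MEF library O4 was the lowest of all. Its log2 fold change was 0.28 with a 95% confidence interval of -0.19 to 0.76 (adjusted p = 0.306, edgeR). Without scaling beyond library size, Smarcc1 passed as higher in mESCs by 0.57 on the log2 scale (adjusted p = 0.0327, edgeR), and its call thus depended on the scaling.

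The ratio of Smarcc1 to Smarcc2 was 5.68, 3.93, 3.22 and 1.57 in MEFs O1 to O4 and 16.3, 19.1 and 13.9 in mESCs. MEF library O4, with the lowest Smarcc1 and the highest Smarcc2, stood furthest from the mESC libraries. On the log2 scale the difference was 2.32 with a standard error of 0.41 (exact permutation test, two-sided, p = 0.0286), and it was 1.97 to 2.59 when each library was left out in turn. The share of Smarcc2 in the counts of this pair was 15.0% to 39.0% in MEFs and 4.96% to 6.67% in mESCs. The sum of both genes was 249 ± 37.6 CPM in MEFs (SD, n = 4) and 246 ± 33.1 CPM in mESCs (SD, n = 3) and did not pass the test (exact permutation test, two-sided, p = 0.971), with a difference on the log2 scale of -0.012 and a standard error of 0.16.

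**Figure D2:**
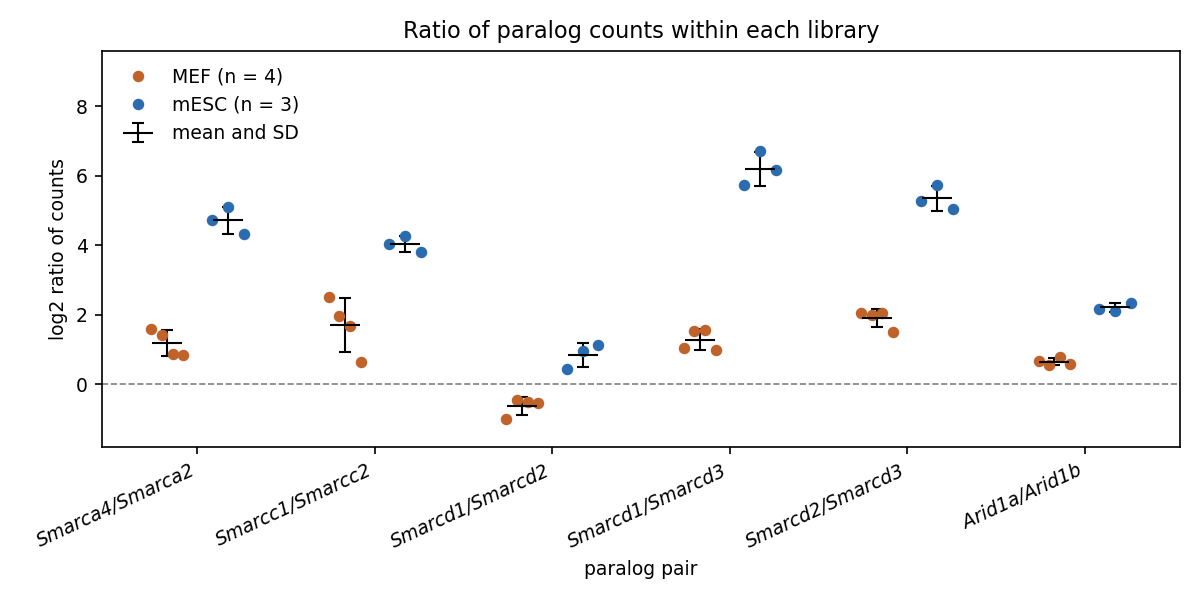
Log2 ratio of the counts of 6 paralog pairs in each library, with 4 MEF libraries in orange, 3 mESC libraries in blue and the mean and SD of each group in black; the dashed line marks equal counts. Every mESC library lies above every MEF library in all 6 pairs, and the Smarcd1/Smarcd2 pair is the one that crosses from below to above the line of equal counts.

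The 3 Smarcd genes (BAF60a, BAF60b and BAF60c) encode core subunits known as contact points for transcription factors, and Smarcd3 is known from heart and muscle. Smarcd1 (chromosome 15, 99702129 to 99713991) held 14.4, 17.4, 24.9 and 25.3 CPM in MEFs O1 to O4 and 42.8, 41.5 and 54.7 CPM in mESCs. All mESC libraries were above all MEF libraries. It rose 2.26-fold in mESCs, and the log2 fold change was 1.18 with a standard error of 0.236 (adjusted p = 0.00191, edgeR).

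Smarcd3 (chromosome 5, 24590818 to 24624411) had few counts, 72, 39, 71 and 81 in MEFs and 7, 3 and 6 in mESCs, and mESC library Y2 was at the floor. In CPM these were 6.91, 5.95, 8.51 and 12.9 in MEFs and 0.759, 0.341 and 0.708 in mESCs. Smarcd3 fell by 3.79 on the log2 scale (standard error 0.497, adjusted p = 0.000112, edgeR). The pooled MEF level was 13.8 times the pooled mESC level, with an exact 95% interval of 8.33 to 24.5 for counting error. Of its exonic bases, 48.2% lie opposite exons of Chpf2, a gene of chondroitin synthesis on the other strand. The strand setting of the counting is not stated, so reads of the 2 genes cannot be told apart there. Chpf2 itself held 1.53, 1.98, 4.79 and 3.34 CPM in MEFs and 0.217, 0.909 and 1.298 CPM in mESCs, below Smarcd3 in every MEF library and above it in mESC libraries Y2 and Y3. Its part in the fall of Smarcd3 was not tested.

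Smarcd2 (chromosome 11, 106263179 to 106272972) held 28.9, 23.9, 35.5 and 36.9 CPM in MEFs and 31.4, 21.2 and 25.2 CPM in mESCs, with overlap between the groups. Its log2 fold change was -0.27 with a 95% confidence interval of -0.76 to 0.22 (adjusted p = 0.357, edgeR), and without scaling beyond library size it was 0.011. No direction can be given for this gene.

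The order of the Smarcd genes differed between the cell types. Smarcd2 was the most counted of them in every MEF library, with 49.2% to 57.6% of the family's counts, and Smarcd1 was the most counted in every mESC library, with 57.1% to 67.8%. Smarcd3 supplied 12.3% to 17.2% in MEFs and 0.541% to 1.01% in mESCs. The part of its overlap with Chpf2 in these shares, in the ratios to Smarcd3 and in its level beside other genes was not tested. The ratio of Smarcd1 to Smarcd2 was 0.499, 0.727, 0.703 and 0.686 in MEFs O1 to O4 and 1.36, 1.95 and 2.17 in mESCs Y1 to Y3. That is a log2 difference of 1.47 with a standard error of 0.24 (exact permutation test, two-sided, p = 0.0286). The ratio of Smarcd1 to Smarcd3 was 1.96 to 2.92 in MEFs and 52.7, 104 and 71.5 in mESCs, a log2 difference of 4.92 with a standard error of 0.32 (exact permutation test, two-sided, p = 0.0286). For Smarcd2 to Smarcd3 the log2 difference was 3.45 with a standard error of 0.24 (exact permutation test, two-sided, p = 0.0286). The 3 ratios share genes and are not independent. The family's sum was 60.3 ± 13.7 CPM in MEFs (SD, n = 4) and 72.9 ± 9.002 CPM in mESCs (SD, n = 3), which did not pass the test (exact permutation test, two-sided, p = 0.286).

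Arid1a and Arid1b (BAF250a and BAF250b) are the large DNA-binding subunits of the canonical form of the complex, and each complex holds either of them. Arid1b (chromosome 17, 4994332 to 5347656) held 36.6, 38.6, 41.9 and 33.1 CPM in MEFs and 17.1, 18.0 and 17.3 CPM in mESCs. The mESC libraries were nearly equal and below all MEF libraries. Arid1b fell by 1.10 on the log2 scale (standard error 0.180, adjusted p = 0.000500, edgeR), which is 2.15-fold lower in mESCs.

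Arid1a (chromosome 4, 133679008 to 133756769) held 58.3, 56.7, 71.4 and 49.3 CPM in MEFs and 76.7, 78.2 and 88.2 CPM in mESCs. The groups did not overlap, but MEF library O3 came close to the lowest mESC library. Arid1a rose 1.37-fold, a log2 fold change of 0.46 (standard error 0.165), and passed narrowly (adjusted p = 0.0410, edgeR). The call was lost when any library other than MEF O3 was left out, with 0.37 to 0.56 for the log2 fold change over all 7 such fits, and no direction changed. It was also lost with no filter on low counts (0.42, adjusted p = 0.146, edgeR).

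The ratio of the pair separated the cell types in every library. Arid1a outnumbered Arid1b by 1.60, 1.47, 1.70 and 1.49 times in MEFs O1 to O4 and by 4.47, 4.34 and 5.07 times in mESCs Y1 to Y3. Of the 6 ratios this one spread least between libraries, with SDs of 0.098 and 0.12 on the log2 scale in MEFs and mESCs. The log2 difference was 1.56 with a standard error of 0.08 (exact permutation test, two-sided, p = 0.0286). Arid1b supplied 37.0% to 40.5% of the pair's counts in MEFs and 16.4% to 18.7% in mESCs. The sum of the pair was 96.5 ± 12.8 CPM in MEFs (SD, n = 4) and 98.5 ± 6.22 CPM in mESCs (SD, n = 3), a difference on the log2 scale of 0.038 with a standard error of 0.11 (exact permutation test, two-sided, p = 0.829).

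**Figure D3:**
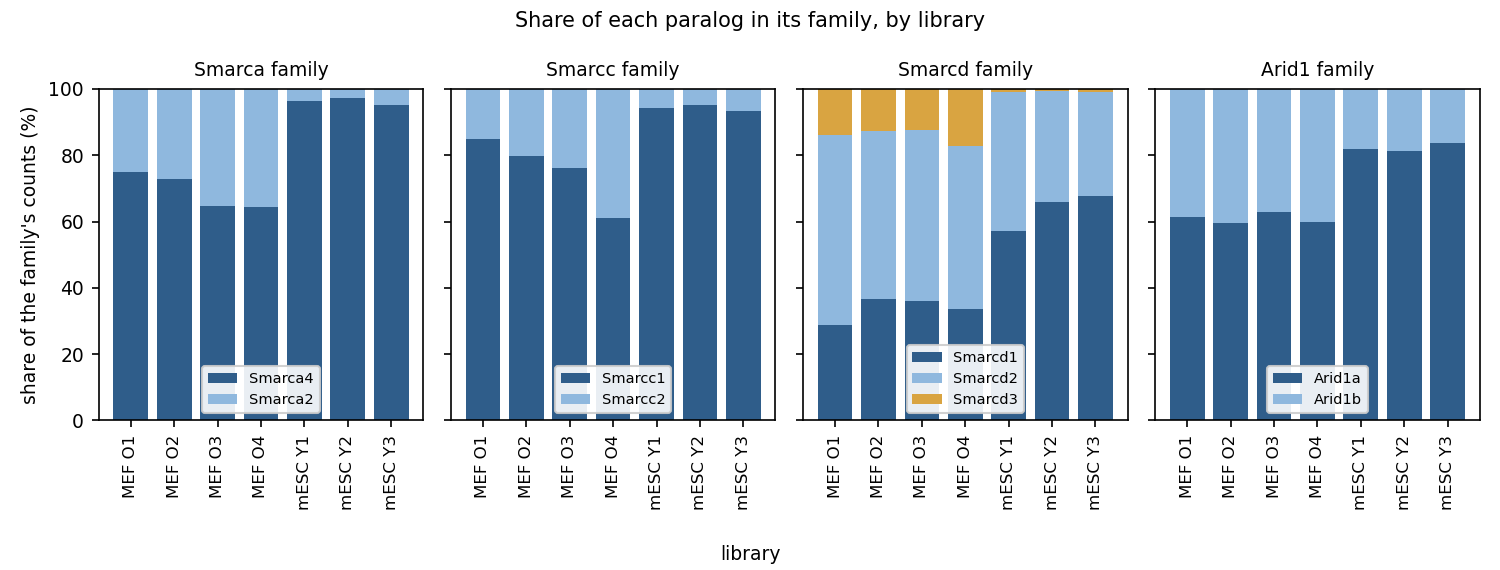
Share of each paralog in the counts of its family, in percent, as stacked bars for the 4 MEF libraries (O1 to O4) and 3 mESC libraries (Y1 to Y3). Smarca2 takes 24.9% to 35.7% of its family in MEFs and 2.83% to 4.74% in mESCs, and Smarcd3 all but leaves its family in mESCs (0.541% to 1.01%).

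Actl6a (BAF53a; chromosome 3, 32706298 to 32726973) is an actin-related protein of the ATPase module that is also a subunit of other remodelling and acetyltransferase complexes, and its paralog Actl6b is known from neurons. Actl6a held 28.6, 23.0, 20.9 and 28.9 CPM in MEFs and 71.1, 68.9 and 73.6 CPM in mESCs. Every mESC library was above every MEF library by a wide margin. It rose 2.81-fold, or by 1.49 on the log2 scale (standard error 0.173, adjusted p = 4.70e-05, edgeR). Of its exonic bases, 11.6% lie opposite exons of Mrpl47, a mitochondrial ribosomal protein gene, which held 35.8 to 63.6 CPM in MEFs and 95.8 to 108 CPM in mESCs. In 3-prime biased libraries a share of bases is not a share of reads, and where the reads fell was not examined. The part of Mrpl47 in the rise of Actl6a was not tested. Actl6b had 0 to 3 counts in the MEF libraries and 3, 1 and 12 counts in mESCs, too few to be tested.

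By level, Smarca4 and Smarcc1 led in both cell types, and their libraries overlapped in each, so that their order cannot be given. In MEFs, Smarca2 followed with 109 CPM and also overlapped with Smarcc1. From Arid1a (58.9 CPM) down through Smarcc2, Arid1b, Smarcd2 and Actl6a to Smarcd1 (20.5 CPM) each gene overlapped with the next, and Smarcd3 stood apart at the bottom with 8.56 CPM. In mESCs no neighbours after the first 2 genes overlapped, in the order Smarcc1, Arid1a (81.1 CPM), Actl6a (71.2), Smarcd1 (46.3), Smarcd2 (26.0), Arid1b (17.5), Smarcc2 (14.1), Smarca2 (9.47) and Smarcd3 (0.602). Smarca2 thus stood at rank 3 of the 10 genes in MEFs and at rank 9 in mESCs, and Actl6a at rank 8 and rank 4. The 10 genes together held 754 to 834 CPM in MEFs and 726 to 753 CPM in mESCs.

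Marker genes were followed beside the paralogs. The 10 fibroblast markers together held 23687 to 40718 CPM in MEFs and 159 to 182 CPM in mESCs, and none of them was at or under the floor in every mESC library. The mESC level of a fibroblast marker was 0.452% (Col1a2) to 8.05% (Twist1) of its MEF level, with a median of 0.850%. The 4 genes that fell kept 8.70% (Smarca2), 24.1% (Smarcc2), 7.04% (Smarcd3) and 46.6% (Arid1b) of their MEF level in mESCs. In MEFs the 10 pluripotency markers together held 44.2 to 47.1 CPM, against 3256 to 3494 CPM in mESCs, and Zfp42 was at or under the floor in every MEF library. Of 8 markers of striated muscle, where Smarcd3 is known, 1 of the 4 tested (Tnnt2) was lower in mESCs and none was higher. The list held 42.8 to 71.4 CPM in MEFs and 32.9 to 42.3 CPM in mESCs. The 4 others had too few counts to be tested. Myod1 had 2 to 16 counts in MEFs and at most 1 in mESCs, and Myog 0 to 29 and at most 2. Myh6 had 0 to 3 counts in MEFs and 5 to 15 in mESCs, and Nkx2-5 1 to 3 and 1 to 10. Of 8 neuronal markers, 6 were tested, with 3 higher in mESCs (Stmn2, Neurod1 and Rbfox3) and 2 lower (Tubb3 and Map2), and Syp was at or under the floor in all libraries. Of 5 endothelial markers, 3 were tested and Pecam1 was higher in mESCs. Among the blood markers 2 were tested, of which Laptm5 was higher in mESCs and Cd53 lower. Beside these counts for muscle, neurons, endothelium and blood, 22.8% of all genes tested were higher in mESCs and 25% lower, 47.9% in all. The part of these other markers in the results was not tested.

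The other subunit genes of the BAF complexes were read from the same fit. Of 21 such genes, 20 had enough counts, of which 1 rose (Bicral), 6 fell (Smarce1, Actb, Bcl7b, Pbrm1, Bcl11a and Bcl11b) and 13 did not pass the test. Over all genes 22.8% rose and 25% fell, and the median log2 fold change was -0.31 for these 20 genes and 0.04 over all genes.

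Among the genes that mark the variant forms, Bicral moved most. It is a subunit of the noncanonical form (ncBAF), in which it or its paralog Bicra stands without an ARID subunit. Bicral held 3.17, 7.62, 7.79 and 6.997 CPM in MEFs and 39.6, 55.2 and 40.8 CPM in mESCs, a 7.12-fold rise (log2 fold change 2.83, standard error 0.308, adjusted p = 2.88e-05, edgeR). Of its exonic bases, 11.3% lie opposite Gm26904, which was not counted separately. Bicra held 2.78 to 12.9 CPM in MEFs and 5.07 to 6.83 CPM in mESCs, a log2 fold change of -0.75 that missed the threshold (adjusted p = 0.223, edgeR). Without MEF library O1 it passed as lower in mESCs (-1.08, adjusted p = 0.0144, edgeR). Of the other ncBAF gene, Brd9, the level was 64.3 to 84.2 CPM in MEFs and 49.5 to 65.4 CPM in mESCs (adjusted p = 0.0688, edgeR). Brd9 passed as lower without MEF library O2 (adjusted p = 0.0484, edgeR) or without mESC library Y2 (adjusted p = 0.0440, edgeR).

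Pbrm1, the polybromo subunit of the PBAF form, held 243, 237.5, 231 and 183 CPM in MEFs and 126, 132 and 103 CPM in mESCs and fell by 0.89 on the log2 scale (standard error 0.159, adjusted p = 0.000908, edgeR). The other PBAF genes did not pass, with adjusted p of 0.0785 for Arid2, 0.826 for Brd7 and 0.926 for Phf10 (edgeR). Arid2, with a log2 fold change of 0.41, passed as higher without scaling beyond library size (0.70, adjusted p = 0.00573, edgeR) and without MEF library O3 (0.52, adjusted p = 0.0339, edgeR).

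Bcl11a and Bcl11b are zinc finger proteins of neurons and lymphocytes that are known as BAF partners. Bcl11a held 21.0 to 23.2 CPM in MEFs and 1.14 to 3.42 CPM in mESCs, and fell by 3.15 on the log2 scale (adjusted p = 4.06e-05, edgeR). Bcl11b held 47.2 to 97.1 CPM in MEFs and 6.18 to 9.79 CPM in mESCs, and fell by 3.08 (adjusted p = 1.42e-05, edgeR). Actb, whose protein is a subunit and also the main actin of the cytoskeleton, held 1.83% to 4.15% of all counts in MEFs and 0.297% to 0.710% in mESCs. It fell by 2.73 on the log2 scale (adjusted p = 9.44e-05, edgeR).

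Smarcb1 and Smarce1 are core subunits for which the complex has no choice of paralog. Smarcb1 held 115 to 151 CPM in MEFs and 113 to 124 CPM in mESCs, with a log2 fold change of -0.17 and a 95% confidence interval of -0.49 to 0.15 (adjusted p = 0.372, edgeR). Smarce1 fell by 0.38 and passed narrowly (adjusted p = 0.0486, edgeR), and 15.0% of its 50-base stretches occur in other genes, most of them in Gm8494. Bcl7b, of the ATPase module, fell by 0.55 (adjusted p = 0.0421, edgeR). Without scaling beyond library size Smarce1 and Bcl7b missed the threshold, and leaving out any library other than MEF O3 also lost both calls. With no filter on low counts both missed it (adjusted p = 0.143 for Smarce1 and 0.0549 for Bcl7b, edgeR). Against a fold change of 1.5 both missed it too (adjusted p = 0.896 and 0.507, edgeR). Smarce1 also missed it with DESeq2 size factors in edgeR (adjusted p = 0.0607, edgeR). Dpf1 and Ss18l1 are paralogs known from neurons. Dpf1 held 38.9 to 44.1 CPM in MEFs and 29.4 to 38.2 CPM in mESCs, without overlap but missing the threshold (adjusted p = 0.261, edgeR). Ss18l1 held 0.839 to 3.96 CPM in MEFs and 4.13 to 7.04 CPM in mESCs and likewise missed the threshold without overlap (adjusted p = 0.0556, edgeR).

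**Figure D4:**
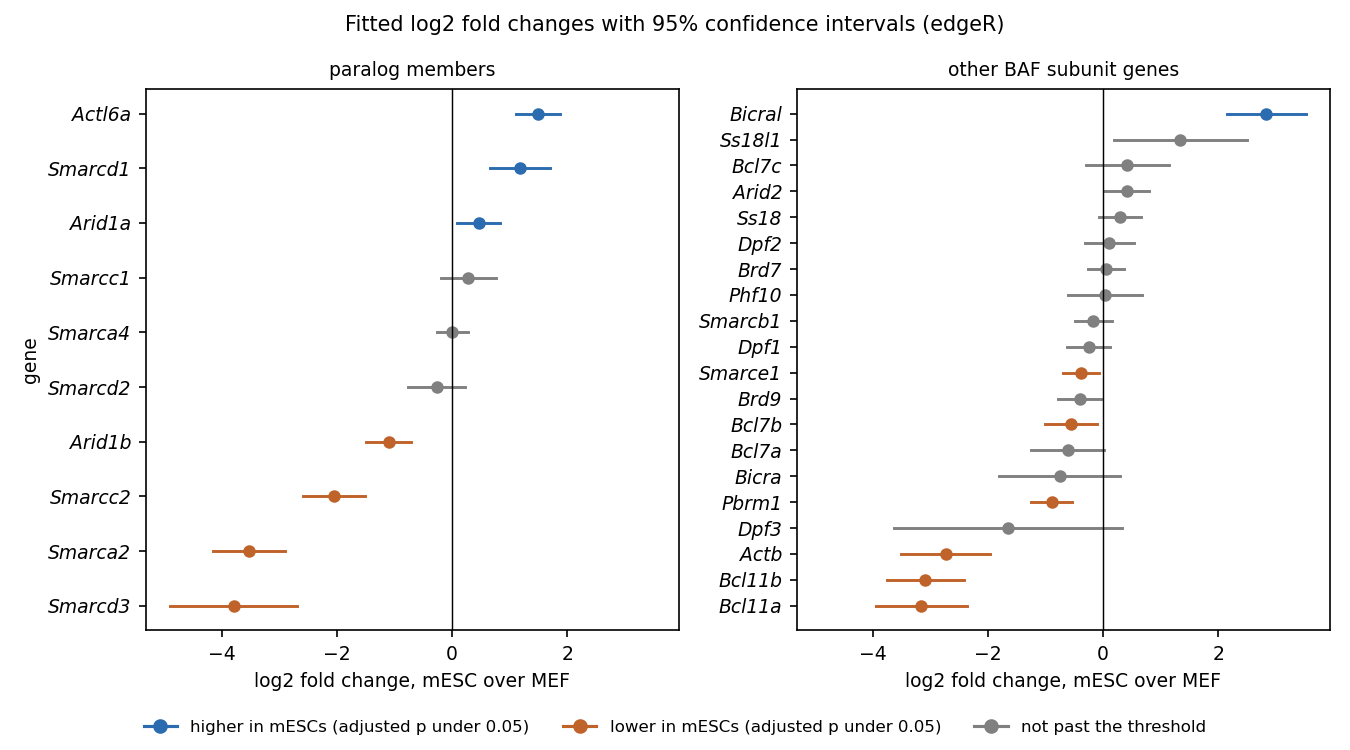
Fitted log2 fold changes of mESCs over MEFs with 95% confidence intervals from edgeR, for the 10 paralog genes (left) and the 20 other BAF subunit genes tested (right), in blue where higher in mESCs, orange where lower and grey where the threshold was missed. The 4 paralogs that fell lie between -3.79 (Smarcd3) and -1.10 (Arid1b), and Bicral has the largest rise, 2.83.

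Sequence shared between genes was examined in exact stretches of 50 bases, and shorter or inexact matches were not examined. No stretch of 50 bases of the annotated transcripts of a gene occurred in any paralog of its family. After Smarcd3, the gene with the largest share of exonic bases opposite other genes was Smarcd1 (12.7%), and both genes there, Gm17349 and Gm34939, held at most 1.70 CPM in any library. For Smarca2, Smarcc2, Smarcd2, Arid1a and Arid1b this share was at most 0.280%. All such shares are of annotated bases and not of reads. Of the 50-base stretches of Smarcc1, 3.29% also occur in other genes, most of them in Gm7004, and of Arid1a 0.839%, most of them in Gm8134.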

How the data were processed

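RNA of 4 MEF and 3 mESC samples was sequenced from 3-prime biased libraries with unique molecular identifiers. The authors demultiplexed reads with Sabre, trimmed them with Cutadapt, aligned them to mm10 with STAR (version 2.4.2a in the submitters' processing notes, while the methods name another), used Je to collapse identifiers and featureCounts to count exonic reads that mapped to a single place. The deposited values are raw counts per gene. The annotation release and strand setting are not given in the sources used here. Collapsing removes PCR copies, and counting unique reads lowers genes with near-identical copies.

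Counts were taken as deposited for 55484 symbols, 26 of which were turned into dates and could match no list. All 7 columns were used. The names of all MEF columns start with MEF1 and those of all mESC columns with mESC1. They thus give the cell type but not the sample's number. Replicates differed by more than sampling noise (chi-square per degree of freedom 15.6 to 31.1). Genes were filtered with filterByExpr and tested with edgeR 4.0.16 (R 4.3.3, limma 3.58.1), using TMM scaling, the quasi-likelihood test and Benjamini-Hochberg adjustment at 0.05. The standard error is the log2 fold change over the square root of F. Paralog ratios were log2 ratios of counts plus 0.5 within a library. Ratios and family sums were compared by exact two-sided permutation (scipy 1.17.1) over 35 splits, and no p was adjusted over the 6 ratios or the 4 sums. Shares carry Wilson 95% intervals. Gene coordinates and exon overlaps came from GENCODE on GRCm38, and promoters from RefSeq. Scripts were tested on simulated data.

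Genes named are the 10 paralog genes, the 21 other BAF subunits and the marker lists (pluripotent cells, fibroblasts, neurons, striated muscle, blood and endothelium), plus genes that share exonic or read sequence with them, which were chosen after the overlaps were seen. The genes and lists were chosen with earlier results of these data known. Alternatives were DESeq2 1.42.0, other scalings, filters, pseudocounts, a test against a fold change of 1.5 and leaving out each library.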

Additional observations from a re-analysis of the deposited data

Results flagged for a closer look

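Among 41 sets of 4 MEF values examined for a library far from the others, 3 were flagged, and chance flags about 1 in 20, or 2.05 of 41. The log2 ratio of Smarcd1 to Smarcd2 was -1.002 in MEF library O1 and -0.54 to -0.46 in the other MEF libraries. Without that library the difference between the cell types in this ratio was 1.34, and leaving out each library in turn gave 1.33 to 1.67. The log2 ratio of Smarcd2 to Smarcd3 was 1.51 in MEF library O4 and 1.995 to 2.06 in the others. Bicra, the paralog of Bicral in ncBAF, held 2.78 CPM in MEF library O1 and 11.7 to 12.9 CPM in the others, and without that library it passed as lower in mESCs (log2 fold change -1.08, adjusted p = 0.0144, edgeR).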

How the results depend on the processing

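The calls of Smarca2, Smarcc2, Smarcd1, Smarcd3, Actl6a and Arid1b held in all 14 planned and added alternatives, and Arid1a in 6 of them. Of 140 values for the 10 paralog genes, 124 kept direction and side of the threshold, 8 lost the call, 1 gained it and 7 changed sign, all of these in Smarca4 or Smarcd2, which were not called. Smarca4 was -0.029 without a filter, -0.018 with a stricter filter and -0.034 to 0.046 when each library was left out. Without scaling beyond library size Smarcd2 was 0.011, Smarcb1 0.11 and Dpf1 0.031. Leaving out each library gave -0.049 to 0.22 for Dpf2, -0.017 to 0.083 for Brd7 and -0.17 to 0.23 for Phf10. The count of other BAF subunits called higher, 1, became 2 with DESeq2 (Ss18l1 added), 4 without scaling (Arid2, Ss18 and Ss18l1 added) and 1 to 2 when each library was left out, with 2 without MEF library O2 or O3. As lower, Bicra and Dpf3 gained a call without MEF library O1, Brd9 without MEF O2 or mESC Y2, and Bcl7a without MEF O4 or with no filter. Smarce1 and Bcl7b lost their calls in the settings named with these genes above. The summed Smarca level fell by 0.19 on the log2 scale without scaling and lost its call, and the summed Smarcc level was 0.27 without scaling and 0.0079 with DESeq2 size factors. The cause was not tested. Without scaling, 60.8% of all genes called were higher in mESCs, against 47.7% with TMM. The alternative without Actb was chosen after seeing the data and changed no call of the 10 genes. With 1 library left out the exact test of a ratio cannot pass 0.05, so such ratios were read as values. No paired analysis was possible because the column names do not give the samples' replicate numbers. Depth limits Smarcd3, with 3 to 7 counts in each mESC library.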
